A study of Mus musculus with 81 samples.

Results

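The J1 cluster of the mouse T-cell receptor beta locus was followed through its 6 segments TCRBJ01-01 to TCRBJ01-06. These are 6 of the 14 J segments named in the files, the others being 7 J2 segments and TCRBJ01-07. Members were all rows whose resolved J segment began with TCRBJ01, which made 204593 of 581514 rearrangements, or 35.2%. Of these, 138191 were in frame, 64189 out of frame and 2213 held a stop codon. TCRBJ01-07 accounted for 256 rows, only 19 of them in frame, and was counted in the cluster total without being described as a member.

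TCR beta rearrangements were sequenced from genomic DNA of 66 blood and 15 tumor samples of 27 mice. All mice were female B6.SJL-Ptprca Pepcb/BoyJ (Pep Boy) animals bearing CD45.1, and all received naive OT-1 T cells (1e6 cells, or 5e5 in the naive mice described below), which carry a transgenic receptor for an ovalbumin peptide. In the treatment experiment, 15 mice with subcutaneous EG7.OVA tumors (EL4 T lymphoma cells that express ovalbumin) were injected on days 0 and 3, with 5 mice in each group. The control group (CTRL) received 1e9 mRBC-CTRL, and the others, named by dose below, 2.5e8 or 1e9 of the engineered cells mRBC-OVA-4-1BBL-IL-12. mRBC are mouse red blood cells, and those of the treated groups carried IL-12, 4-1BBL and an ovalbumin peptide presented by MHC I on their surface. Blood was drawn on day 0, within minutes of the OT-1 transfer, and on day 7, when tumors were also taken. The rechallenge experiment held 7 mice cured earlier by the 2.5e8 dose and 5 age-matched naive mice. Cured mice were bled on days 65 and 73, before and after a second EG7.OVA inoculation, and again 1 day before and 9 days after a challenge with EL4, the parent line without ovalbumin. Naive mice were bled on days 65 and 73 only, before and after their first EG7.OVA inoculation. They had received their OT-1 cells on day 65, whereas the cured mice had received theirs at the original treatment, so that cured and naive mice differ in the number and age of the transferred cells as well as in earlier tumor and treatment. Blood of CTRL mouse 1 on day 7 and of 1e9 mouse 1 on day 0 was not analysed here.

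The beta chain locus holds 2 consecutive blocks, each with a D segment followed by a cluster of J segments and a constant region. A developing thymocyte first joins a D to a J segment, trims the ends, adds non-templated bases, and then joins a V segment, so the J segment writes the last residues of CDR3, the loop that contacts the peptide. Segment TCRBD01 lies upstream of the J1 cluster, while TCRBD02 lies between the J1 and J2 clusters. An out-of-frame rearrangement encodes no receptor and travels with a functional one on the other chromosome, so the receptor it would have made is not selected.

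The OT-1 receptor (CDR3 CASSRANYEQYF) and the lymphoma clone (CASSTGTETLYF) both use J2 segments and were left out of every share in frame. Together they made 43.1% of the in-frame templates of all libraries. After that, a library held 482 to 23605 in-frame templates, of which 116 to 10043 used J1. The blood of 1e9 mouse 5 on day 7 was the shallowest library, and no library was identical to another. A template is one rearranged genome estimated by the assay, so a lower share of 1 segment cannot be told apart from a higher share of the others. Intervals on single libraries cover counting error only.

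The stretch that each J1 segment adds when nothing is trimmed from it was read from the rearrangements of this series and is shown because it sets the end of every CDR3 described here. Capitals mark the bases of the J segment, and the 87-base reads of the files end just before the codon of the conserved phenylalanine.
TCRBJ01-01: CAAACACAGAAGTCTTC
TCRBJ01-02: CAAACTCCGACTACACC
TCRBJ01-03: TTCTGGAAATACGCTCTAT
TCRBJ01-04: TTTCCAACGAAAGATTATTT
TCRBJ01-05: TAACAACCAGGCTCCGCTT
TCRBJ01-06: TTCCTATAATTCGCCCCTCTAC
The 6 stretches ran from 17 bases in TCRBJ01-01 and TCRBJ01-02 to 22 bases in TCRBJ01-06. Trimming ran unevenly over them. TCRBJ01-03 lost 1.41 bases on average and was untrimmed in 54.8% of its in-frame blood rearrangements, while TCRBJ01-06 lost 4.19 bases and was untrimmed in 20.6%.

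For each segment, the in-frame rearrangement found in most libraries is given below, with the bases of the J segment in capitals, to show how little beyond the germline segments such common sequences hold.
TCRBJ01-01, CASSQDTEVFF: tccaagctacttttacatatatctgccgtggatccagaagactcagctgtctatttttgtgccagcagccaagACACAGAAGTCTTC
TCRBJ01-02, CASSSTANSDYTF: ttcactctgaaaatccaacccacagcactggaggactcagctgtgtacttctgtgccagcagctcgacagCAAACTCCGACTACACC
TCRBJ01-03, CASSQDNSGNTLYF: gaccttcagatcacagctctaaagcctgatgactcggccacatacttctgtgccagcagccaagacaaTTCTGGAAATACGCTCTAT
TCRBJ01-04, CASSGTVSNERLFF: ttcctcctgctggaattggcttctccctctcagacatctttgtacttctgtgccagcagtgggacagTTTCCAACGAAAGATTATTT
TCRBJ01-05, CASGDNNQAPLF: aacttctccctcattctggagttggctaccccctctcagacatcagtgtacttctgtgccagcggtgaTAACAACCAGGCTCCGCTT
TCRBJ01-06, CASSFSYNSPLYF: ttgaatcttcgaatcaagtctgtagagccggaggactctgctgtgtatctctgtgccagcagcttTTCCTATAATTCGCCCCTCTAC
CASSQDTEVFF was found in 18 libraries of 12 mice and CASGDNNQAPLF in 5 libraries of 5 mice. No more than 1 non-templated base was added in any of the 6, and all but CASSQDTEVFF kept the whole J stretch. Over all in-frame J1 rearrangements, 5891 occurred in at least 2 mice and 122654 in 1 mouse. Those in several mice lacked inserted bases in 30.7% of cases compared with 6.50% of the others, and lost 1.62 rather than 2.71 bases of the J segment. By segment, the share found in several mice was highest for TCRBJ01-03, at 5.52%, and lowest for TCRBJ01-05, at 2.35%. Carry-over between libraries was not tested.

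The 6 segments were used at unequal levels in blood, and the order depended on whether templates or rearrangements were counted. In the first blood of the 19 mice without earlier treatment, TCRBJ01-01 held 8.17% of in-frame templates, followed by TCRBJ01-04 with 7.43%, TCRBJ01-03 with 6.92%, TCRBJ01-02 with 6.52%, TCRBJ01-05 with 4.26% and TCRBJ01-06 with 2.41%. The difference between neighbours in this order was 0.744 ± 0.727 points (SD over mice) for TCRBJ01-01 over TCRBJ01-04, 0.508 ± 0.973 for TCRBJ01-04 over TCRBJ01-03 and 0.408 ± 0.723 for TCRBJ01-03 over TCRBJ01-02. These last 2 differences lay within 1 SD, and the order held in 15 and 14 of 19 mice. TCRBJ01-02 exceeded TCRBJ01-05, and TCRBJ01-05 exceeded TCRBJ01-06, in 19 of 19 mice. The order was read from the same libraries and is given as a description. When each rearrangement was counted once over the blood of all 27 mice, TCRBJ01-01 rose to 11.1%, and TCRBJ01-02, with 6.37%, stood above TCRBJ01-03, with 5.55%. TCRBJ01-05 and TCRBJ01-06 then lay side by side at 3.31% and 3.10%. By templates TCRBJ01-01 was lower by 2.90 points than by rearrangements, TCRBJ01-03 was higher by 1.04 points and TCRBJ01-05 by 1.01 points (permutation test, adjusted p = 2e-05 for each).

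The number of templates behind a rearrangement differed between the segments. In TCRBJ01-01, 98.9% ± 1.61 (SD, n = 66 blood libraries) of in-frame rearrangements had a single template, and in TCRBJ01-06 97.0% ± 3.03 did. In TCRBJ01-02 and TCRBJ01-04 the share was 68.3% ± 13.2 and 67.4% ± 11.4. In TCRBJ01-03 and TCRBJ01-05 it was only 48.2% ± 16.2 and 43.6% ± 14.3. The same order held among out-of-frame rearrangements, which encode no receptor, where TCRBJ01-01 stood at 98.9% and TCRBJ01-05 at 49.9%. The share also differed between the experiments and sampling times. For TCRBJ01-03, group means were 29.5% to 38.8% in the treatment experiment, 47.3% to 51.5% on days 65 and 73, 70.9% before EL4 and 76.2% after it, whereas TCRBJ01-01 stayed between 96.9% and 99.8% in all groups. From day 0 to day 7 the TCRBJ01-03 mean went from 34.7% to 34.7% in CTRL, 38.8% to 36.0% in 2.5e8 and 29.5% to 31.3% in 1e9. From day 65 to 73 it went from 50.7% to 51.5% in cured and from 47.7% to 47.3% in naive mice. Sampling day cannot be told apart here from the experiment or the handling of the libraries. Rearrangements seen in more than 1 blood library of the same mouse made 0.470% of TCRBJ01-01, compared with 0.515% for TCRBJ01-03 and 0.354% for TCRBJ01-05. The cause of the unequal template numbers was not tested. Templates are estimates of the assay, and whether the estimate differs between segments could not be settled from the files. This limit applies to every share of a segment by templates given here, the order above and the comparisons of tumor and blood included, which is why counts of rearrangements stand beside them.

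**Figure D1:**
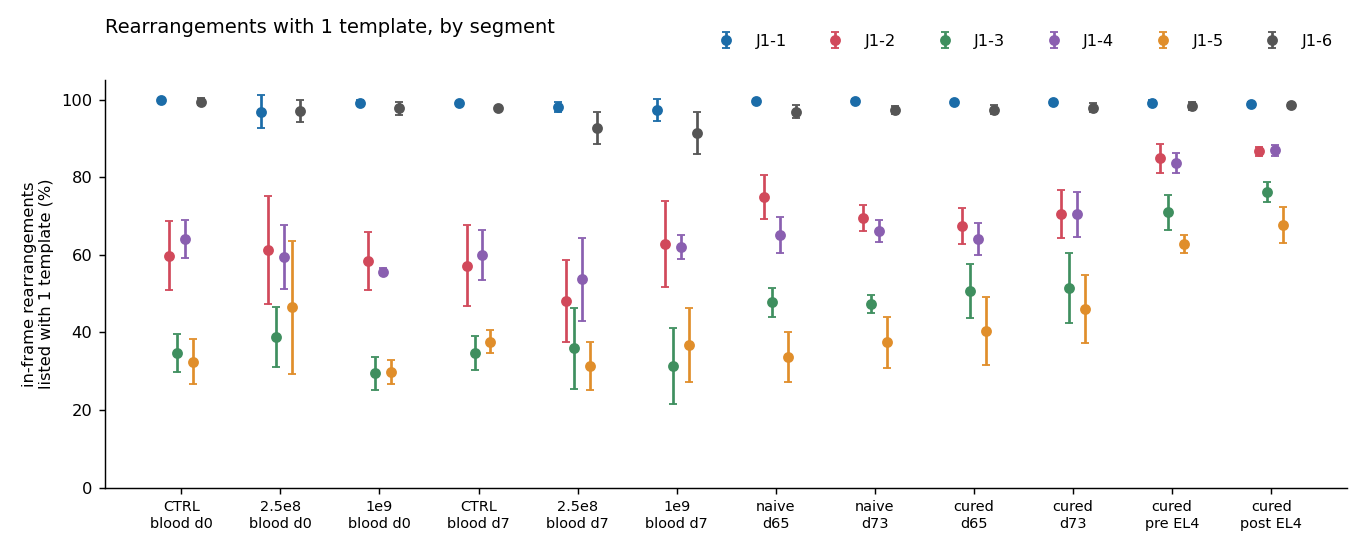
Percent of in-frame rearrangements that had 1 template, for each blood group (horizontal axis) and J1 segment (colours), as mean ± SD over the libraries of the group. TCRBJ01-01 and TCRBJ01-06 sit near the top in every group, while TCRBJ01-03 and TCRBJ01-05 are lowest and are higher before and after EL4 than in the other groups.

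Out-of-frame rearrangements were compared with in-frame ones to ask whether J1 usage differs between receptors that passed selection and rearrangements that made none. Counting each blood rearrangement once, the J1 cluster made 32.8% ± 1.34 of out-of-frame and 36.6% ± 0.790 of in-frame rearrangements (SD, n = 27 mice). The out-of-frame share was lower by 3.82 points on average and lower in 27 of 27 mice (permutation test, p = 1e-05, the smallest these resamples allow). The difference turned to 5.91 points in the other direction once rearrangements with 1 template were left out (permutation test, p = 1e-05), and for rearrangements with a stop codon it was 0.0927 points (p = 0.925). By templates of the first blood library it was -0.740 points (n = 26 mice, p = 0.0273).

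Most of that gap lay in TCRBJ01-01, the segment nearest to TCRBD01. It made 7.94% of out-of-frame and 11.1% of in-frame rearrangements, a log2 ratio of -0.49 ± 0.017 (SE; edgeR, adjusted p = 6.86e-64), and was lower in 27 of 27 mice. TCRBJ01-03 fell from 5.55% in frame to 4.98% out of frame (log2 ratio -0.15, adjusted p = 4.33e-12), and TCRBJ01-04 from 7.17% to 6.51% (log2 ratio -0.14, adjusted p = 1.21e-11). TCRBJ01-05 was higher out of frame, at 3.61% compared with 3.32% (adjusted p = 0.000291), in 19 of 27 mice, and TCRBJ01-06 was higher at 3.44% compared with 3.11% (adjusted p = 1.62e-09), in 25 of 27 mice. TCRBJ01-02 did not pass the test. Thus 5 of the 6 members passed, 3 of them lower, against 78.6% of the 14 J segments in this fit. TCRBJ01-07 held 0.0821% of out-of-frame and 0.00645% of in-frame rearrangements (log2 ratio 3.71, adjusted p = 5.49e-31), the highest ratio in the cluster. Counted by templates, TCRBJ01-03 and TCRBJ01-04 no longer passed (adjusted p = 0.137 and 0.0543).

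**Figure D2:**
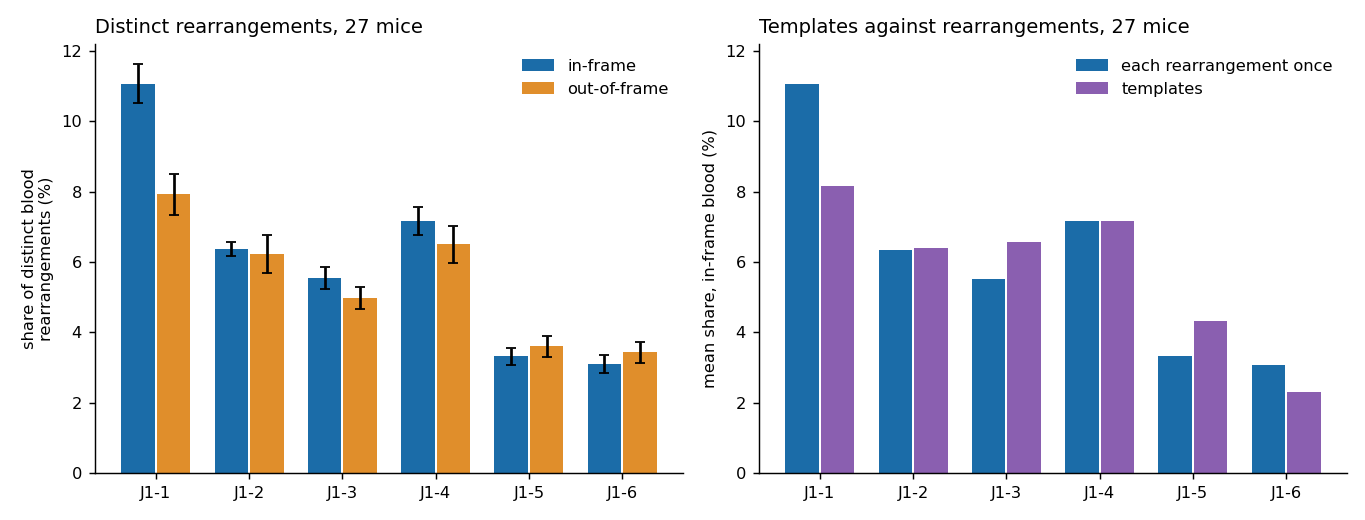
Left, share of distinct blood rearrangements held by each J1 segment, in frame and out of frame, as mean ± SD over 27 mice, in percent. Right, the in-frame share of each segment counted by rearrangement and by template. TCRBJ01-01 shows the widest gap in both panels, from 11.1% of in-frame to 7.94% of out-of-frame rearrangements.

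The D segment assigned to J1 rearrangements was mostly TCRBD01. Among in-frame blood rearrangements with a D assignment, TCRBD02 made 9.21% ± 0.649 with J1 and 58.4% ± 0.978 with J2 (SD, n = 27 mice), a difference of -49.2 points that was negative in all mice (permutation test, p = 1e-05). TCRBD02 lies beyond the J1 cluster, so the order of the segments sets this direction and the test only checks the assignments. In-frame TCRBD02 assignments kept 5.48 bases of the D segment with J1 and 8.48 with J2. By segment the TCRBD02 share ranged from 7.61% ± 1.74 in TCRBJ01-04 to 10.1% ± 1.34 in TCRBJ01-01. Out of frame it ranged from 9.42% ± 2.58 in TCRBJ01-06 to 14.1% ± 3.09 in TCRBJ01-03. No D segment was assigned in 24.4% of J1 and 17.3% of J2 rearrangements. Both D segments are short and similar in sequence, and the accuracy of the D assignment was not tested.

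CDR3 length differed between the segments with the length of the stretch they kept. TCRBJ01-01 gave a mean in-frame CDR3 of 39.8 nt and TCRBJ01-02 of 40.7 nt. TCRBJ01-05 followed with 41.5 nt, while TCRBJ01-03, TCRBJ01-04 and TCRBJ01-06 gave 42.7, 42.7 and 42.8 nt. Up to the end of the read the segments kept 14.3 to 17.8 bases of their own. The rest of CDR3 spanned only 25.0 nt in TCRBJ01-06 to 25.8 nt in TCRBJ01-04. This rest includes the codon of the conserved phenylalanine, which lies past the read. The J1 cluster as a whole gave 41.4 nt compared with 41.9 nt for J2, a mean difference of -0.482 nt within mice (SD 0.107, n = 27, permutation test, p = 1e-05). Weighted by templates the difference was 0.0494 nt (permutation test, p = 0.0966). Out-of-frame J1 rearrangements were longer than in-frame ones by 1.03 nt, in 27 of 27 mice, with 0.426 more bases at the first and 0.424 more at the second junction (permutation test, adjusted p = 1.33e-05 over 28 measures). The number of bases lost from the J segment differed by 0.0124 (permutation test, p = 0.438).

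**Figure D3:**
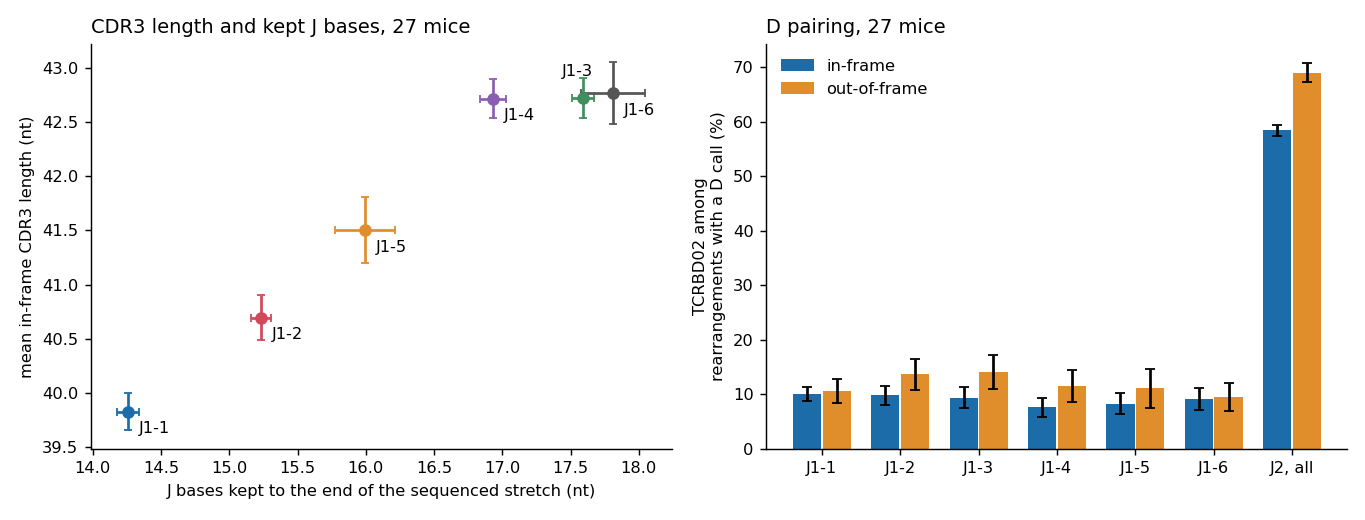
Left, mean in-frame CDR3 length against the mean number of J bases kept up to the end of the read, in nucleotides, for each J1 segment, with SD over 27 mice. The axes do not start at 0. Right, TCRBD02 in percent of the rearrangements with a D assignment, for each J1 segment and for J2, in and out of frame. Segments that keep more bases give longer CDR3s, and TCRBD02 makes 7.61% to 14.1% in the 6 segments while J2 lies above 50%.

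J1 usage also depended on the V segment in the same rearrangement. Among in-frame blood rearrangements the J1 share ran from 30.7% ± 2.04 with TCRBV04-01 to 45.1% ± 2.77 with TCRBV26-01 (SD, n = 27 mice). Out of frame it ran from 24.4% ± 2.42 with TCRBV13-02, whose in-frame share was 34.9%, to 44.1% ± 6.62 with TCRBV29-01. The 3 V segments whose template share ran most like the J1 share over the 66 blood libraries were TCRBV15-01, TCRBV17-01 and TCRBV03-01, with Spearman rho of 0.394, 0.351 and 0.327. Libraries of the same mouse enter these values more than once.

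In tumors, the J1 share of all in-frame templates varied widely from mouse to mouse and did not separate the doses. In the 5 CTRL tumors, J1 made 60.3%, 46.6%, 34.6%, 25.4% and 28.1% of in-frame templates in mice 1 to 5. In the 2.5e8 group the values were 28.7%, 14.3%, 46.4%, 52.1% and 29.0%, and in the 1e9 group 31.3%, 21.3%, 35.5%, 41.1% and 22.3%. All 3 groups overlapped. Means were 38.99% ± 14.5, 34.09% ± 15.2 and 30.32% ± 8.52 (SD, n = 5). The J1 to J2 ratio, averaged over the single tumors, was 0.730 ± 0.488, 0.586 ± 0.378 and 0.453 ± 0.181, with a highest value of 1.52 in CTRL mouse 1. The difference between 1e9 and CTRL was -8.67 points (exact permutation test, p = 0.302, adjusted p = 0.762 over 5 dose comparisons), that between 2.5e8 and CTRL -4.89 points (p = 0.627) and that between 1e9 and 2.5e8 -3.77 points (p = 0.635). At 5 mice against 5 the smallest possible p is 0.00794. Counting each rearrangement once brought the tumors together at 33.3% ± 0.632 in CTRL, 35.5% ± 1.58 in 2.5e8 and 33.9% ± 2.73 in 1e9. By that count 2.5e8 lay 2.20 points above CTRL (exact permutation test, unadjusted p = 0.0317). This p was not adjusted over the dose comparisons and is not counted as a passed test.

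**Figure D4:**
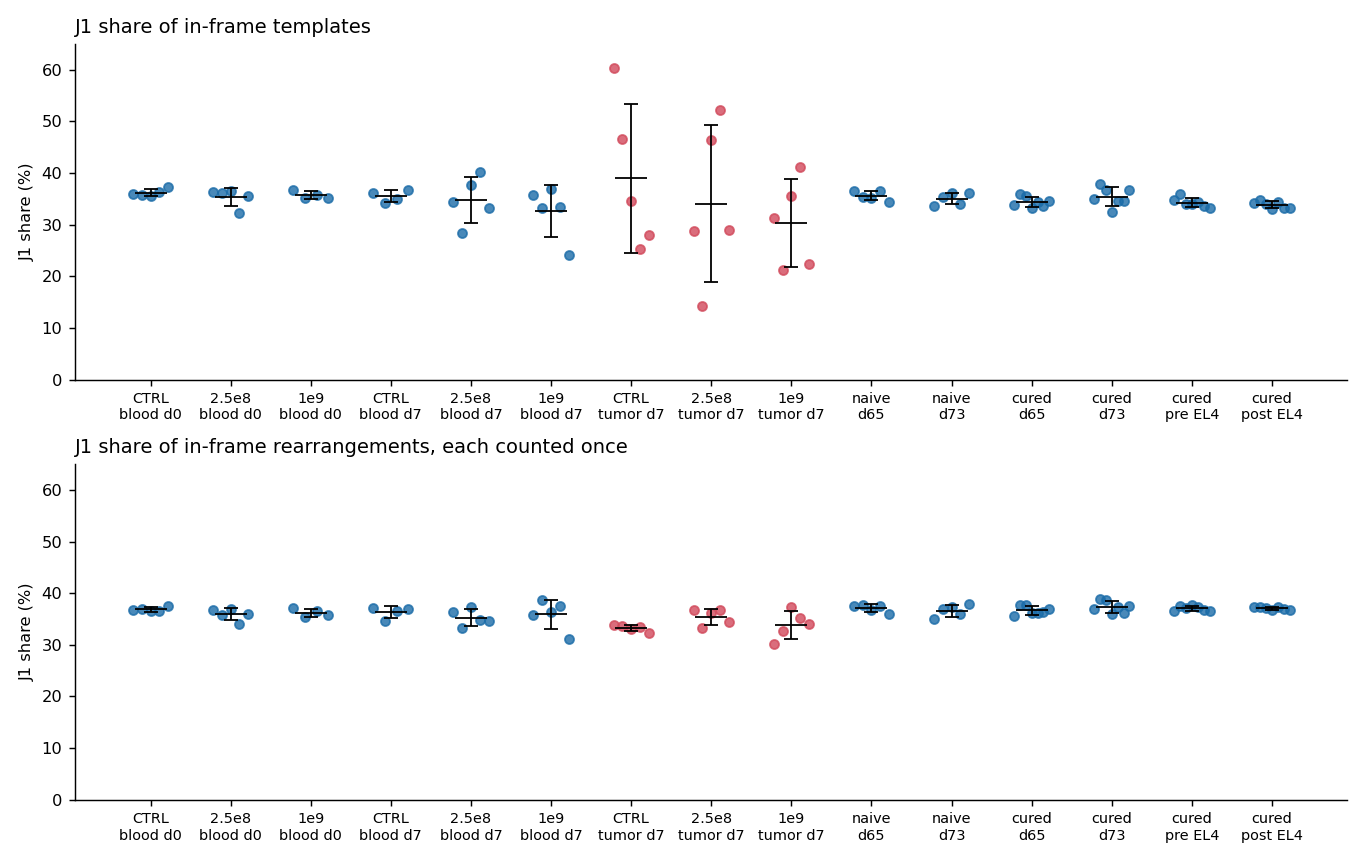
J1 share of in-frame templates (upper panel) and of distinct in-frame rearrangements (lower panel) in percent, for each library of the 15 groups, with mean ± SD; blood is blue and tumors are red. Tumor points spread from 14.3% to 60.3% by templates, while every group mean lies between 33.3% and 37.4% by rearrangements.

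The spread by templates lay with a few large clones. Rearrangements holding at least 1% of a tumor's templates numbered 62 among J1 and 114 among J2, or 0.643% of 9635 and 0.610% of 18682 rearrangements. They were found with J1 in 14 of 15 tumors. TCRBJ01-05 carried 16 of them, in 9 tumors, 1.62% of its 989 rearrangements, and TCRBJ01-02 also carried 16, or 0.948% of 1687. The other segments ran from 0.343% in TCRBJ01-01 (9 of 2623) to 0.510% in TCRBJ01-04 (10 of 1959), with TCRBJ01-06 at 0.432% (4 of 926). Of the 6 J1 rearrangements that held at least 10% of a tumor, 4 used TCRBJ01-05. Without the rearrangements of 1% or more, the J1 share of all 15 tumors ran from 28.9% to 40.3%, with means of 32.1% in CTRL, 37.8% in 2.5e8 and 31.9% in 1e9. With the 10 most abundant CDR3s of each tumor left out, J1 made 32.5% (30.7% to 33.8%) in CTRL. It made 39.3% (33.5% to 41.6%) in 2.5e8 and 33.0% (30.3% to 39.5%) in 1e9. The 2.5e8 mean was thus the highest by both counts, whereas over all templates it lay below the CTRL mean, at 34.09% compared with 38.99%. Its range overlapped those of the other groups. With the 10 CDR3s left out, the overlap with CTRL spanned only 33.5% to 33.8%.

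The largest J1 rearrangement of each group is shown, with the J bases in capitals, since these single sequences held 17.4% to 31.9% of their tumors.
CTRL mouse 2, TCRBV16-01 and TCRBJ01-05, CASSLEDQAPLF: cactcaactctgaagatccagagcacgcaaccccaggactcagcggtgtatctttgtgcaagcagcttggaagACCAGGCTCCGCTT
2.5e8 mouse 4, TCRBV17-01 and TCRBJ01-05, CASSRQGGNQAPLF: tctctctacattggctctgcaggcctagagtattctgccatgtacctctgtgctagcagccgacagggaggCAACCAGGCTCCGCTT
1e9 mouse 4, TCRBV05-01 and TCRBJ01-04, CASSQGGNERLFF: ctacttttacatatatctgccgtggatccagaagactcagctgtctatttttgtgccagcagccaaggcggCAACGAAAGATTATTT
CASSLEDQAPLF held 3659 templates, or 31.9% of its tumor. It had 0 templates in the blood of that mouse on day 0, which allows a share of up to 0.0606%, and 26 on day 7. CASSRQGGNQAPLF held 755 tumor templates, or 29.2%, with 0 templates in blood on day 0, which allows up to 0.112%, and 266 on day 7. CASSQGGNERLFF held 738 tumor templates, or 17.4%, and rose from 2 to 107 templates in blood.

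**Figure D5:**
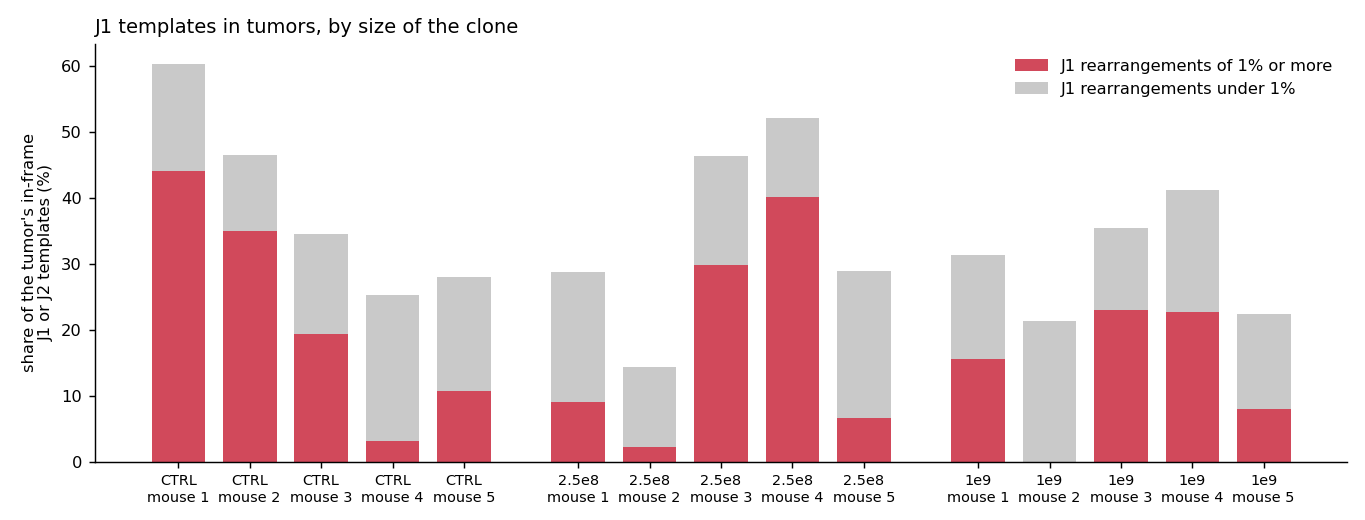
J1 share of in-frame templates in each of the 15 tumors, split into rearrangements holding at least 1% of the tumor's templates and those below 1%; bars start at 0 and are in percent. The differences between tumors lie mainly in the larger rearrangements.

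By segment, TCRBJ01-05 differed most between tumors. Its share was 35.0%, 36.7%, 6.01%, 4.91% and 1.43% in the CTRL tumors, 3.87%, 1.02%, 1.71%, 36.0% and 6.91% in the 2.5e8 tumors and 1.45%, 2.28%, 13.4%, 2.50% and 3.77% in the 1e9 tumors. The 2 highest CTRL tumors and 1 tumor of the 2.5e8 group thus stood far above the rest. No J segment was called between doses, 0% of 12 or 13 segments in each of the 4 fits of tumors or day 7 blood against CTRL (edgeR; 0 also by DESeq2). At an unadjusted p under 0.05 there were 2 segments for 1e9 and 0 for 2.5e8 in tumors, and 1 each in blood. In day 7 blood the one segment of the 2.5e8 comparison was TCRBJ01-01, at 6.76% compared with 8.09% (log2 difference -0.26, adjusted p = 0.480). In tumors both were members, TCRBJ01-05 with a log2 difference of -1.84 (adjusted p = 0.268) and TCRBJ01-06 with 1.18 (adjusted p = 0.268). For the other 4 members in tumors, log2 differences from CTRL lay between -0.76 (TCRBJ01-02) and 0.62 (TCRBJ01-03) in 1e9 and between -0.51 (TCRBJ01-04) and 1.22 (TCRBJ01-03) in 2.5e8, with adjusted p of 0.480 or more. In 2.5e8 tumors TCRBJ01-05 differed by -0.77 and TCRBJ01-06 by 0.40 (edgeR, adjusted p = 0.565 for each). In day 7 blood the 6 members lay between -0.20 (TCRBJ01-04) and 0.15 (TCRBJ01-05) in 1e9 and between -0.27 (TCRBJ01-06) and 0.62 (TCRBJ01-05) in 2.5e8. With each rearrangement counted once, TCRBJ01-03 was higher in 2.5e8 than CTRL tumors, at 5.96% ± 0.753 and 4.71% ± 0.547 (log2 difference 0.36 ± 0.10 SE, adjusted p = 0.00825).

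Tumor and blood of the same mice were then compared. On day 7 the J1 share of blood was 36.0%, 34.2%, 35.1% and 36.7% in CTRL mice 2 to 5. It was 34.3%, 28.4%, 37.6%, 40.3% and 33.1% in the 2.5e8 group and 35.7%, 33.2%, 36.9%, 33.4% and 24.1% in the 1e9 group. The last of these, in the shallowest library, had a 95% Wilson interval of 20.5% to 28.1%. Tumors differed from blood by -1.61 points on average (SD 8.49, n = 14 mice), with 5 of 14 mice higher in tumor (permutation test, p = 0.483). Within the groups the difference was -1.87 points in CTRL (n = 4 mice), -0.662 in 2.5e8 and -2.34 in 1e9 (n = 5 each). With so few mice the exact sign-flip test cannot give a p under 0.05, so its results (p between 0.562 and 1) decide nothing here.

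TCRBJ01-01 was less used in tumors than in blood. Its share in the CTRL tumors of mice 2 to 5 was 2.64%, 3.30%, 5.08% and 4.13%, compared with 8.10%, 7.62%, 8.39% and 8.24% in their blood. In the 2.5e8 group tumors held 4.78%, 2.77%, 10.1%, 3.21% and 5.25% and blood 7.36%, 6.10%, 7.94%, 5.38% and 7.00%. In the 1e9 group tumors held 7.36%, 4.45%, 4.95%, 6.13% and 2.22% and blood 9.20%, 7.21%, 7.50%, 8.18% and 6.22%. The tumor was the lower in 13 of 14 mice, the exception being 2.5e8 mouse 3. The log2 difference was -0.76 ± 0.19 (SE; edgeR, adjusted p = 0.00418), in a fit whose median over all 13 J segments was -0.40 and over the 6 members -0.42. Scaling by TMM left -0.35 (adjusted p = 0.152) and DESeq2 -0.22 (adjusted p = 0.397). With each rearrangement counted once, TCRBJ01-01 remained lower, at 9.34% compared with 10.9% (log2 difference -0.24 ± 0.046 SE, adjusted p = 2.66e-06), in 12 of 14 mice.

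TCRBJ01-03 was also called lower in tumors, at 5.29% ± 4.90 compared with 6.45% ± 1.11 (log2 difference -0.58 ± 0.21 SE, adjusted p = 0.0310), in 12 of 14 mice. Its adjusted p was 0.0596 without 1e9 mouse 3, 0.0563 without 1e9 mouse 5, 0.0966 without 2.5e8 mouse 4 and 0.0590 without CTRL mouse 2, and with rearrangements counted once the log2 difference was -0.02 (adjusted p = 0.852). The call was also lost with TMM (log2 difference -0.18, adjusted p = 0.581), with DESeq2 (-0.05, adjusted p = 0.852) and in the sign-flip permutation test of the share (-1.15 points, adjusted p = 0.654). These 2 of the 6 members stood against 30.8% of the 13 segments in the fit. TCRBJ01-04, at 6.01% ± 5.00 in tumors and 6.90% ± 1.07 in blood, did not pass (log2 difference -0.51, adjusted p = 0.0632), nor did TCRBJ01-02, at 5.91% ± 3.43 and 6.55% ± 1.13 (log2 difference -0.34, adjusted p = 0.182). TCRBJ01-05 averaged 8.71% ± 12.1 in tumors and 4.89% ± 2.82 in blood (adjusted p = 0.944). TCRBJ01-06 made 1.97% in both (log2 difference -0.24, adjusted p = 0.421) and was higher in tumor in 5 of 14 mice. By rearrangements, in contrast, it was higher in tumors, at 3.32% compared with 2.83% (log2 difference 0.22, adjusted p = 0.00820), in 10 of 14 mice. The mean CDR3 length of distinct J1 rearrangements differed between tumor and day 7 blood by 0.242 nt, with the tumor longer in 11 of 14 mice, which did not pass (permutation test, p = 0.0101, adjusted p = 0.0606 over 6 tests). Weighted by templates the difference was -0.225 nt (permutation test, p = 0.543).

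From day 0 to day 7 the J1 share of blood moved by -1.64 points (SD 4.54, n = 13 mice, permutation test, p = 0.227), and rose in 4 mice. Group means on day 0 were 36.20% ± 0.70 in CTRL, 35.34% ± 1.81 in 2.5e8 and 35.72% ± 0.77 in 1e9. On day 7 they were 35.52% ± 1.10, 34.75% ± 4.50 and 32.66% ± 5.06. On day 7, 1e9 differed from CTRL by -2.86 points (exact permutation test, p = 0.349) and 2.5e8 by -0.767 points (p = 0.762). No segment was called (0% of 13, edgeR; 2 at an unadjusted p under 0.05). Both of these were members. TCRBJ01-01 went from 8.11% to 7.33%, lower in 11 of 13 mice (log2 difference -0.15, adjusted p = 0.131), and was called by the sign-flip permutation test of its share, by -0.780 points (adjusted p = 0.0199). With each rearrangement counted once TCRBJ01-01 stood at 10.9% on both days (log2 difference -0.01, adjusted p = 0.895). TCRBJ01-06 went from 2.34% to 1.97%, lower in 11 of 13 mice (adjusted p = 0.130). The other 4 members had log2 differences between -0.13 (TCRBJ01-03) and 0.12 (TCRBJ01-05), with adjusted p of 0.365 or more.

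In the rechallenge experiment the J1 share, counted over all templates, stayed within a few points of 35%. For the cured mice the mean was 34.45% ± 0.97 at day 65, 35.42% ± 1.83 at day 73, 34.27% ± 0.89 before EL4 and 33.85% ± 0.67 after it (SD, n = 7). The naive mice had 35.60% ± 0.87 and 35.05% ± 1.13 (n = 5). From day 65 to day 73 the share of cured mice moved by 0.965 points, upward in 6 of 7 mice. By the exact sign-flip test p was 0.0469, which did not pass after adjustment over the 6 comparisons (adjusted p = 0.125). The same step in naive mice was -0.547 points (exact sign-flip test, adjusted p = 0.703). With 5 mice the smallest p of that test is 0.0625, so it could not have passed. The changes of cured and naive mice did not differ in the exact permutation test (p = 0.121). From before to after EL4 the share moved by -0.423 points (exact sign-flip test, p = 0.0625). Cured mice differed from naive mice by -1.15 points on day 65 (exact permutation test, p = 0.0619, adjusted p = 0.125) and by 0.363 points on day 73 (p = 0.703). Leaving out rearrangements with 1 template changed these levels. Cured means were then 30.5% on day 65, 31.4% on day 73, 25.3% before EL4 and 22.8% after it. Naive means were then 32.4% on day 65 and 32.1% on day 73. The cause of the lower values around EL4 was not tested.

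TCRBJ01-03 was the one member called in the rechallenge experiment. On day 65 it made 5.93%, 6.44%, 5.69%, 5.43%, 5.54%, 6.26% and 5.76% of templates in cured mice 1 to 7, and 6.99%, 6.58%, 6.25%, 7.17% and 6.54% in naive mice 1 to 5. The groups overlapped, with 2 cured mice at or above the lowest naive mouse. The log2 difference was -0.20 ± 0.057 (SE; edgeR, adjusted p = 0.0173), against a background of 8.33% of 12 segments called. It missed the threshold without cured mouse 4 (adjusted p = 0.0506), naive mouse 1 (0.0865) or naive mouse 4 (0.0940). By rearrangements the shares were 5.22% and 5.70% (adjusted p = 0.392). The other 5 members differed on day 65 by log2 values between -0.05 (TCRBJ01-06) and 0.01 (TCRBJ01-02), with adjusted p of 0.898 or more. On day 73 TCRBJ01-03 made 6.41% ± 0.517 in cured and 6.90% ± 0.430 in naive mice (log2 difference -0.12, adjusted p = 0.503), and the other 5 members lay between -0.06 (TCRBJ01-02) and 0.13 (TCRBJ01-05). Between days 65 and 73 in cured mice 8.33% of 12 segments passed, none of them a member. The log2 differences of the members ran from -0.02 (TCRBJ01-04) to 0.12 (TCRBJ01-03, higher in 6 of 7 mice, adjusted p = 0.125). In naive mice over the same days they ran from -0.11 (TCRBJ01-04) to 0.10 (TCRBJ01-02), and from before to after EL4 in cured mice from -0.07 (TCRBJ01-06) to 0.05 (TCRBJ01-01). No segment was called from before to after EL4 in cured mice, from day 65 to 73 in naive mice, or between cured and naive mice on day 73 (0% in each, edgeR; 0, 1 and 0 at an unadjusted p under 0.05).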

How the data were processed

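TCR beta rearrangements were amplified from genomic DNA by the authors with the immunoSEQ mouse assay, a bias-controlled multiplex PCR. Each deposited library file lists collapsed and filtered rearrangements with a template count, the frame, the V, D and J names, bases deleted and inserted, and CDR3 length in nucleotides. The aligner and genome build are not given in the sources used here, and reads were not analysed here. Lengths and deletions were used as deposited.

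J1 shares were computed from the deposited template counts of in-frame rows with a J1 or J2 assignment, without the OT-1 and lymphoma CDR3s. Of the other rows, 590 named the J2 family only and 28 no J family. The day 73 library of cured mouse 2 carries another mouse number in its title but the animal code of mouse 2, which was used. Groups of different mice were compared by 2-sided exact permutation tests and samples of the same mice by 2-sided sign-flip tests (exact, or 100000 resamples with 10 or more mice, called permutation tests), with Benjamini-Hochberg adjustment. Single segments were tested with edgeR 4.0.16 (quasi-likelihood, total templates as library size, segments with at least 10 templates, adjusted over all J segments of a comparison at 0.05), with the mouse as block where samples shared mice, after a test on simulated data. The simulation was unpaired and drawn around day 0 blood, so it does not cover the tumor fits or the fits with a block. DESeq2 1.42.0 was an alternative, in R 4.3.3. Shares used Python 3.11.15, pandas 2.3.3, numpy 2.4.6 and scipy 1.17.1. Other alternatives counted each rearrangement once, changed the clones left out, the scaling or the block, or left out each mouse.

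All 6 segments were tested in each comparison and are given singly or as a range. Shown sequences are the rearrangement of each segment found in most libraries and the largest J1 rearrangement of the tumors of each dose group; the V segments named for the J1 share had at least 1% of templates. The members and lists were chosen with earlier results of these data known. Libraries held 2355 to 77041 in-frame templates before the exclusions. Replicates are mice. RefSeq (GRCm38.p6) was used for the order of the segments only.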

Additional observations from a re-analysis of the deposited data

Results flagged for a closer look

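In 10 of 105 combinations of a group and a measure (the J1 share and the 6 segment shares in 15 groups), 1 mouse lay apart from the rest of its group by Dixon's criterion, which chance meets in about 1 in 20 groups. Of these, 7 were in the 2.5e8 group. Several came from the same mouse, so the 10 are not independent and cannot be set directly against that rate. In tumors, TCRBJ01-03 stood at 21.4% in 2.5e8 mouse 3 (others 1.74% to 4.71%) and TCRBJ01-04 at 8.31% in the same tumor (others 2.48% to 3.84%). TCRBJ01-05 stood at 36.0% in the tumor of 2.5e8 mouse 4 (others 1.02% to 6.91%) and at 13.4% in the tumor of 1e9 mouse 3 (others 1.45% to 3.77%). In day 7 blood of the same mice of the 2.5e8 group, TCRBJ01-03 was 9.15% in mouse 3 (others 5.73% to 6.19%) and TCRBJ01-05 13.8% in mouse 4 (others 3.04% to 5.45%). In day 0 blood, the J1 share was 32.2% in 2.5e8 mouse 4 (others 35.6% to 36.5%) and TCRBJ01-06 was 2.63% in 2.5e8 mouse 1 (others 2.24% to 2.32%). Among cured mice, TCRBJ01-05 was 3.32% in mouse 4 on day 65 (others 4.07% to 4.61%) and TCRBJ01-06 3.85% in mouse 6 on day 73 (others 1.90% to 2.60%).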

How the results depend on the processing

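Of 115 alternatives to the J1 share, D and length results, 89 kept the direction and the side of the unadjusted threshold. Differences are in points of J1 share. Counting each rearrangement once gave 0.615 for 1e9 and 2.20 for 2.5e8 against CTRL in tumors, 0.426 for cured mice from day 65 to before EL4 and 0.723 from day 65 to 73. Leaving out the 10 most abundant CDR3s gave 0.5675 and 6.80 for these tumors, -6.24 for 1e9 against 2.5e8 tumors and -0.507 for after against before EL4. Keeping the OT-1 and lymphoma CDR3s, both J2, gave 4.37 for 2.5e8 against CTRL tumors, -22.0 for 1e9 against CTRL day 7 blood, -15.6 for tumor against blood, -6.78, -1.95 and 0.229 for the cured mice from day 65 to 73, from day 65 to before EL4 and from before to after EL4, 2.88 for the naive mice, and 1.93 and -7.73 for cured against naive mice on days 65 and 73. Leaving out rearrangements with 1 template gave 0.859, -5.18 and -2.53 for the same 3 steps of cured mice, -0.751 for cured against naive on day 73 and 5.91 for out-of-frame against in-frame; rearrangements with a stop codon gave 0.0927. CDR3 length weighted by templates gave 0.0494 nt. The cause of these changes was not tested.

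Leaving out each mouse gave -12.1 to -3.33 (1e9 against CTRL tumors), -3.93 to -0.711 (1e9 against CTRL day 7 blood), -2.65 to -0.642 (tumor against day 7 blood), -9.41 to 0.440 (2.5e8 against CTRL tumors), -8.72 to 0.738 (1e9 against 2.5e8 tumors), -2.14 to 0.810 (2.5e8 against CTRL day 7 blood), -2.45 to -0.853 (day 7 against day 0; -2.45 without 2.5e8 mouse 4, p = 0.0211 in the permutation test), 0.779 to 1.26 (cured, day 73 against 65), -0.352 to 0.0382 (cured, before EL4 against day 65), -1.09 to 0.0239 (naive), and -1.43 to -0.928 and -0.0522 to 0.861 (cured against naive, days 65 and 73).

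For J segments called, 54 of 72 alternatives stayed within 1.5 times the first count. Tumor against blood gave 0 with TMM, 2 with DESeq2, 2 with the sign-flip test, 7 by rearrangements and 2 to 5 without single mice. Day 7 against day 0 gave 1 with the sign-flip test. Cured mice on day 73 against 65 gave 0 with TMM, DESeq2, the sign-flip test, no minimum, rearrangements or no replicate block. Cured against naive on day 65 gave 2 with DESeq2 and with the permutation test and 0 by rearrangements. Rearrangements gave 1 for 2.5e8 against CTRL tumors and 1 for 1e9 against CTRL day 7 blood. Leaving out a mouse gave 0 to 2 for both cured comparisons with a call and 0 to 1 for day 7 against day 0, both doses in day 7 blood, the naive mice and 1e9 against CTRL tumors.

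Without the replicate block, tumor against blood was 0.239 (all 15 tumors), with 1 segment called. The step of cured mice from day 65 to 73 was 0.965 and no longer lay under the unadjusted threshold. With the block it had not passed after adjustment. Mice of different groups share only a number: deviations of same-numbered mice correlated at -0.0773 over 41 pairs in the treatment and 0.169 over 10 pairs in the rechallenge experiment. With the number as a replicate block, 1 segment was called for 1e9 against CTRL day 7 blood. Depth limits the smallest library most, at 116 J1 templates.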

Other observations

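TCRBJ01-02 joined to TCRBV12-01 carried a family of 12-residue CDR3s of the form CASSP, 2 varying residues and SDYTF in several tumors; it was picked out after its values were seen, and its values are given without a test. In CTRL tumors it held 8.63% of in-frame templates in mouse 5, 3.27% in mouse 3 and 1.41% in mouse 1, while 0 templates were found in mice 2 and 4, which allows up to 0.0261% and 0.0196%. The leading sequences were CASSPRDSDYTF, with 1020 templates from 5 different nucleotide rearrangements in mouse 5 and 234 from 3 in mouse 1, and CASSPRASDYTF, with 771 from 4 in mouse 3. In the other tumors it was found in 2.5e8 mouse 1 as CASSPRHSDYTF (54 templates, 0.392%) and in 1e9 mouse 3 as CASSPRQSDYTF (2 templates, 0.0495%). In day 7 blood of CTRL mice it held 1.52% in mouse 5 (76 templates), 0.385% in mouse 3 (24 templates) and 0.00935% in mouse 4 (1 template). It was also found in 26 of the 62 other blood libraries, day 0 and naive mice included, at up to 0.0831%.

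The share of TCRBJ01-01 in blood of cured mice averaged 8.37% on day 65, 8.98% before EL4 and 9.30% after it. Rearrangements with 1 template made 86.1% of J1 before and 88.1% after EL4, compared with group means of 74.1% to 76.4% on days 65 and 73. The part of the template numbers in this was not tested.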
